A study of Mus musculus with 6 samples.

Results

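The Wnt family of secreted signals, with the receptors that read them, the secreted proteins that block or strengthen them and the genes that report their activity, was followed in regenerating tendon from mice that lack AMPKα1 in myeloid cells. The set held 45 genes chosen by name and role, of 18099 genes in the deposited table, and comprised 13 Wnt ligands, 10 Frizzled receptors, 5 co-receptors, 8 antagonists, 3 agonists and 6 target or feedback genes. All 45 were in the table, and 43 had enough reads to be tested. Wnt1 and Wnt7b had at most 7 reads in any library and were not tested.

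RNA libraries, 6 in all, were made from whole tendon tissue of neonatal mice after transection of the Achilles tendon, which connects the calf muscles to the heel. The tendons were cut when the mice were 0 to 1 days old, and the tissue was taken 7 days after injury. The 3 control libraries came from littermates, which the study describes as carrying the floxed Ampkα1 allele without Cre, and the other 3 from Lysm-Cre; Ampkα1fl/fl mice, with 3 mice per condition. In the Lysm-Cre; Ampkα1fl/fl mice Cre is expressed from the lysozyme M locus, so recombination is expected throughout the myeloid lineage, in monocytes, macrophages and granulocytes, and the RNA came from all cells of the tissue, so the Wnt genes of tendon fibroblasts, vessels and other cells were read together. In such bulk RNA, fewer cells of a type and less RNA per cell cannot be told apart.

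Wnt ligands are lipid-modified proteins that act over short distances. They bind a Frizzled receptor together with a co-receptor. With Lrp5 or Lrp6 the signal stabilizes β-catenin, which enters the nucleus and switches on target genes with TCF and LEF factors. With Ror1, Ror2 or Ryk it runs through branches that do not need β-catenin and steer cell polarity and movement. Secreted antagonists of the Sfrp family and Wif1 bind the ligands, Dkk1 and Dkk2 act at Lrp5 and Lrp6, and R-spondins keep Frizzled receptors at the cell surface. In skeletal tissues Wnt signalling is best known for its role in bone formation, and tendon cells express several of its components.

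The libraries held 18076805 to 19479887 reads each. Transcripts of the targeted gene Prkaa1 (AMPKα1) did not differ in the whole tissue beyond the spread, at 38.2 ± 0.842 CPM (mean ± SD, n = 3; CPM are a gene's reads scaled to the size of the library) in the control group and 36.2 ± 4.07 in the Lysm-Cre; Ampkα1fl/fl group (adjusted p = 0.744 by edgeR's quasi-likelihood test). Lyz2, the gene at the lysozyme M locus, had 7372 to 7778 reads in the control libraries and 8 to 15 in the Lysm-Cre; Ampkα1fl/fl libraries. The groups thus differed in Cre and in Lyz2 transcripts as well as in the expected deletion of Ampkα1. This design cannot tell these apart, and the part of each was not tested. Tendon fibroblast markers such as Scx, Tnmd and Fmod were abundant in both groups, and 0 of the 9 listed passed the test. Across all 14261 genes tested, 128 passed an adjusted p of 0.05 (0.898%), 47 higher (0.33%) and 81 lower (0.568%) in the Lysm-Cre; Ampkα1fl/fl group.

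Of the 43 Wnt genes tested, 5 changed, 1 higher and 4 lower. The antagonist Dkk3 rose, and the antagonists Sfrp4 and Dkk2, the ligand Wnt5a and the receptor Fzd4 fell. These were 11.6% of the genes tested, against 0.898% of all genes. The set was chosen with earlier results of these data known, so the shares given here are a description and no test of the family. An unadjusted p under 0.05 was reached by 11 genes (25.6%, against 14.5% of all genes), 4 higher (5.97% of all genes) and 7 lower (8.55% of all genes). In those 11 genes, and in no other gene tested of the set, the groups did not overlap in CPM, against 20.4% of all genes (8.94% higher and 11.4% lower). The median log2 fold change of the 43 genes, Lysm-Cre; Ampkα1fl/fl over control, was -0.05, against -0.00 over all genes.

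Upstream sequence was at hand for 30 of the 45 genes (37 promoters, RefSeq, build GRCm38.p6, 250 bases before each transcription start). Of the 11 genes with an unadjusted p under 0.05, 5 had an entry outside the annotated gene, and these are printed 5′ to 3′ to show their start regions. Of the genes that passed the adjusted threshold they include Dkk2 and Fzd4, while Sfrp4, Dkk3 and Wnt5a had no entry. The stretch ends where the annotated gene begins. Capitals mark the core sequence that TCF and LEF factors bind, searched on both strands in the spelling AACAAAG, the variant ATCAAAG, the variant TACAAAG and the variant TTCAAAG.
Dkk2 chr3:132085042-132085265 (+): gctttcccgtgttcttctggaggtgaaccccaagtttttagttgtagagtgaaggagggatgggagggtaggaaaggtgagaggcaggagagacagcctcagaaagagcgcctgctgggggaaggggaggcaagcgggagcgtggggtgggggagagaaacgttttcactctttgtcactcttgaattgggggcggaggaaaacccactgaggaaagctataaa
Wif1 chr10:121033754-121034003 (+): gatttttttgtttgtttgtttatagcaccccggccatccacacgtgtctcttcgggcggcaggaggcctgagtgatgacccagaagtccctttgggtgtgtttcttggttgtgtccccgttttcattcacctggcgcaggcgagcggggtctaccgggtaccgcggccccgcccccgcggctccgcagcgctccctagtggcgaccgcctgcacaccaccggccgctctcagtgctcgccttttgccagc
Fzd4 chr7:89404116-89404365 (+): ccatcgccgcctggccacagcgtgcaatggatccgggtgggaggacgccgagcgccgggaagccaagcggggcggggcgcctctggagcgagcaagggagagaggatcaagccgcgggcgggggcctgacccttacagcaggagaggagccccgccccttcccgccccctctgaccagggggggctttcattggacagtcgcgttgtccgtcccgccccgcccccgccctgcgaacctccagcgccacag
Wnt11 chr7:98834862-98835083 (+): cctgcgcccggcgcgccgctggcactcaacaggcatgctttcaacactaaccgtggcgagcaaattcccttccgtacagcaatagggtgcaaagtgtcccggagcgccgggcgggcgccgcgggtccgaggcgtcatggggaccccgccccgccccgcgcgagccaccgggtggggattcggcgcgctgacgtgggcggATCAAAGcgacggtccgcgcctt
Nkd2 chr13:73847632-73847881 (-): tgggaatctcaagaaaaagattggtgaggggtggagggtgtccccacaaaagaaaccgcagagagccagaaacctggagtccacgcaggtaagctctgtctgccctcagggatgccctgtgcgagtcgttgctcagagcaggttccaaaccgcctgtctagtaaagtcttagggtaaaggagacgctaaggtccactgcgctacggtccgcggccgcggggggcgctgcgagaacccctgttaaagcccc
The core was found only in the Wnt11 stretch among these, beginning at base 200 of its window. Over the whole set 4 of 37 promoters held it (10.8%), in Fzd7, Wnt11, Wnt5b and Lef1, against 14.8% of all 32851 promoters of the same length. Of the 9 promoters of target or feedback genes, 1 held it, an internal start of Lef1, and the Axin2 entry did not. A match is a stretch of letters and not a measured binding site, and a window without it says nothing of factor binding elsewhere.

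Levels between genes were compared in TPM, a unit scaled to transcript length as well as library size, summed over the transcripts of each gene. The antagonists were the most abundant class, with a summed level of 951 ± 71.7 TPM (SD, n = 3) in the control group, and Dkk3 led them at 351 ± 10.7 TPM. The Frizzled receptors summed to 235 ± 13.8 TPM, the co-receptors to 178 ± 1.69, the ligands to 125 ± 3.69, the agonists to 52.1 ± 2.89 and the target or feedback genes to 49.6 ± 3.28. Secreted antagonist transcripts were thus several times as abundant as ligand transcripts in the injured tendon of either group.

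**Figure D1:**
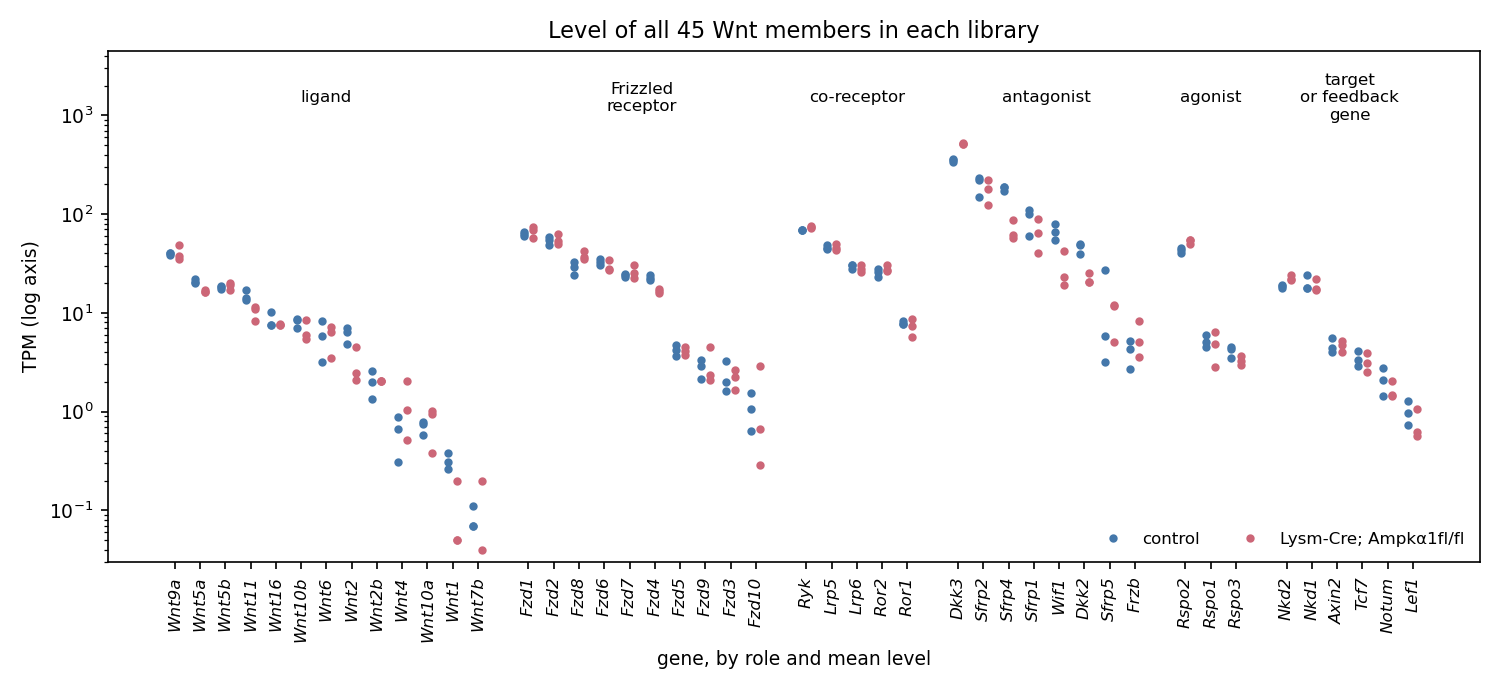
TPM on a log axis for each of the 45 Wnt genes, ordered by role and then by mean level, with 1 point per library, blue for control and red for Lysm-Cre; Ampkα1fl/fl (values of 0 are not drawn). Dkk3 stands highest, and Wnt1 and Wnt7b lie below 1 TPM in every library.

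Wnt9a, a ligand with a known part in joint formation, was the most abundant ligand. It had 59.6, 59.1 and 59.5 CPM in the control libraries and 53.7, 69.9 and 57.3 in the Lysm-Cre; Ampkα1fl/fl libraries. The groups overlapped, and the log2 fold change was 0.02 ± 0.0988 (SE; adjusted p = 0.95, edgeR). In TPM the order went from Wnt9a (39.8 over all libraries) to Wnt5a (18.7) and Wnt5b (18.3), then Wnt11 (12.5), Wnt16 (8.03), Wnt10b (7.32), Wnt6 (5.74), Wnt2 (4.57) and Wnt2b, while Wnt4, Wnt10a, Wnt1 and Wnt7b were below 1 TPM. Wnt5a stood above Wnt5b in every control library (20.9 ± 1.13 against 17.97 ± 0.65 TPM) and below it in every Lysm-Cre; Ampkα1fl/fl library (16.6 ± 0.33 against 18.7 ± 1.62). Wnt16 and Wnt10b lay within their spread of each other.

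Wnt5a, the ligand best known for signals through Ror receptors that bypass β-catenin, fell. Its level was 55.3, 56.3 and 59.2 CPM in the control libraries and 44.1, 43.5 and 43.2 in the Lysm-Cre; Ampkα1fl/fl libraries. Every control library was above every Lysm-Cre; Ampkα1fl/fl library. Control libraries were 1.31-fold higher, a log2 fold change of -0.38 ± 0.0508 (SE; adjusted p = 0.0309, edgeR). With a block for replicate number its adjusted p was 0.0842. The gene lies on chromosome 14, at 28504543 to 28527448 of GRCm38.p6.

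The transcripts of Wnt5a did not move alike. Its most abundant transcript, NM_009524, had 12.21, 9.95 and 12.4 TPM in the control libraries and 7.21, 7.04 and 6.53 in the Lysm-Cre; Ampkα1fl/fl libraries. That transcript made up 55.1% ± 4.84 of the gene's TPM in the control group and 41.9% ± 2.01 in the Lysm-Cre; Ampkα1fl/fl group, without overlap. The predicted transcript XM_006518923 was listed at 1.15, 2.13 and 0.98 TPM in the controls and at 0 in all 3 Lysm-Cre; Ampkα1fl/fl libraries, whereas NM_001256224 was at 0.12, 1.8 and 0 against 2.68, 3.23 and 1.78 TPM. Shares of transcripts that overlap in sequence are estimates of the submitters' quantification, and no test was made of them.

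Besides Wnt5a, 2 ligands had groups that did not overlap, both lower in the Lysm-Cre; Ampkα1fl/fl group, without passing the adjusted threshold. With Wnt5a these were 3 of the 11 ligands tested (27.3%), against 20.4% of all genes in either direction and 11.4% lower. Wnt2, which signals through β-catenin in several developing organs, was at 7.14, 6.01 and 6.80 CPM against 2.56, 4.92 and 2.65. Its second Lysm-Cre; Ampkα1fl/fl library was closer to the controls than the others (log2 fold change -0.98 ± 0.273, adjusted p = 0.169, edgeR), and without that library the value was -1.35 with an adjusted p of 0.0293. Wnt11, a ligand of the polarity branch, was at 16.5, 20.9 and 14.4 CPM against 13.2, 12.9 and 10.8 (log2 fold change -0.49 ± 0.16, adjusted p = 0.223, edgeR). The other 8 ligands tested overlapped between groups. Among them the low gene Wnt4 had the largest positive fold change, 0.96 ± 0.591 (adjusted p = 0.516, edgeR), on 10 to 68 reads per library. The ligands as a class summed to 125 ± 3.69 TPM in the control group and 113 ± 12.4 in the Lysm-Cre; Ampkα1fl/fl group, and the groups overlapped.

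Among the receptors Fzd1 was the most abundant Frizzled, at 132, 125 and 128 CPM in the controls and 143, 145 and 121 in the Lysm-Cre; Ampkα1fl/fl libraries. The groups overlapped (log2 fold change 0.09 ± 0.0800, adjusted p = 0.671, edgeR). By TPM over all libraries Fzd1 (64.9) and Fzd2 (54.6) led, followed by Fzd8 (33.3), Fzd6 (31.3), Fzd7 (25.0) and Fzd4 (19.6), and Fzd5, Fzd9, Fzd3 and Fzd10 were each below 5 TPM. Fzd6 has 7 transcript entries, of which 2 are second listings with values equal to those of the first, so its level is uncertain. Fzd8 lay below or near Fzd6 in the control group (28.6 ± 4.37 against 32.7 ± 2.25 TPM) and above it in the Lysm-Cre; Ampkα1fl/fl group (38.0 ± 3.53 against 29.8 ± 4.18).

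Fzd4, a receptor that also reads the non-Wnt ligand norrin in blood vessels, fell. It had 37.2, 37.3 and 40.2 CPM in the control libraries and 28.0, 28.7 and 27.5 in the Lysm-Cre; Ampkα1fl/fl libraries. The groups lay apart with little spread in either (fold 1.36 higher in control; log2 fold change -0.45 ± 0.0619; adjusted p = 0.036, edgeR). With the replicate block the adjusted p was 0.0887. Its promoter on chromosome 7, printed above, held no TCF or LEF core. In contrast, Fzd8 was higher without passing the adjusted threshold, at 43.1, 37.8 and 49.6 CPM against 53.8, 61.5 and 57.3 (log2 fold change 0.40 ± 0.106, adjusted p = 0.148, edgeR). The other 8 Frizzled genes overlapped between groups, with log2 fold changes from -0.13 in Fzd6 to 0.27 in Fzd10 (-0.10 with the block), and the class summed to 235 ± 13.8 TPM against 243 ± 25.3.

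None of the 5 co-receptors passed the test (0 of 5, edgeR), and all overlapped between groups. An unadjusted p under 0.05 was reached by 0 (against 14.5% of all genes), and DESeq2 called 0 (against 4.77%). Ryk, a receptor with an inactive kinase domain that binds Wnts, was the most abundant, at 71.5 TPM over all libraries. Its 100.3, 105 and 101 CPM in the controls compared with 111, 103 and 113 in the Lysm-Cre; Ampkα1fl/fl libraries (log2 fold change 0.10 ± 0.0541, adjusted p = 0.475, edgeR). Lrp5 and Lrp6, the partners of the β-catenin branch, had log2 fold changes of -0.01 and -0.08, with standard errors of 0.0732 and 0.0582. Ror1 and Ror2, the partners through which Wnt5a acts, had -0.15 ± 0.134 and 0.12 ± 0.0992. Ror1 had the largest absolute value of the class, at 22.4, 21.7 and 21.1 CPM against 19.9, 22.9 and 15.8.

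The antagonists held 3 of the 5 genes that changed, in both directions. Of the 8 tested, 1 rose, 2 fell and 5 did not pass, against 0.898% of all genes called, and the median log2 fold change of the class was -0.40. The groups did not overlap in 4 of the 8, against 20.4% of all genes.

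Dkk3 rose. It is a divergent member of the Dickkopf family whose effect on Wnt signalling differs between tissues. It was at 545, 535 and 536 CPM in the control libraries and at 782, 764 and 816 in the Lysm-Cre; Ampkα1fl/fl libraries. The control values lay close together, and each Lysm-Cre; Ampkα1fl/fl library was well above them, 1.46-fold on average (log2 fold change 0.55 ± 0.0523, adjusted p = 0.0134, edgeR). With the replicate block the log2 fold change was 0.55 and the adjusted p 0.0524. All 3 Dkk3 transcripts were higher without overlap, and the most abundant, NM_001360260, went from 202.45 to 216.3 TPM in the controls to between 281.1 and 333.35. Its share of the gene was 59.8% ± 3.37 and 60.5% ± 5.57, so the rise was shared by the transcripts.

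Sfrp4 fell the most of the 43 genes. It is a secreted Frizzled-related protein that binds Wnts outside the cell and is known for its role in bone. It was at 134, 139 and 122 CPM in the control libraries and 44.1, 60.9 and 42.4 in the Lysm-Cre; Ampkα1fl/fl libraries. Every control was far above every Lysm-Cre; Ampkα1fl/fl library, and control libraries were 2.68-fold higher on average (log2 fold change -1.42 ± 0.143, adjusted p = 0.0135, edgeR). The gene lies on chromosome 13, at 19623175 to 19632825 of GRCm38.p6, and has a single listed transcript. The call held with the replicate block (adjusted p = 0.0132).

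Dkk2, which binds Lrp5 and Lrp6 and can block or weakly activate them depending on the cell, fell. It had 80.7, 86.5 and 65.6 CPM in the controls and 35.5, 41.9 and 35.7 in the Lysm-Cre; Ampkα1fl/fl libraries. The groups lay apart, with controls 2.06-fold higher (log2 fold change -1.04 ± 0.119, adjusted p = 0.0204, edgeR, and 0.0184 with the replicate block). The difference lay in NM_020265, at 46.04, 45.06 and 37.44 TPM against 18.23, 22.36 and 18.84, while the minor transcript XM_006501818 overlapped between groups.

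Wif1, which binds Wnt ligands directly, had the second largest fold change and missed the threshold. Its values were 52.3, 78.1 and 63.4 CPM in the controls and 18.5, 21.5 and 41.7 in the Lysm-Cre; Ampkα1fl/fl libraries. The third Lysm-Cre; Ampkα1fl/fl library was nearer the controls than the other two. The log2 fold change was -1.25 ± 0.314 (adjusted p = 0.137, edgeR), and -1.69 with an adjusted p of 0.0321 without that library.

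The remaining antagonists overlapped between groups. Sfrp1 was at 219, 209 and 120.0 CPM against 132, 176 and 84.1 (log2 fold change -0.48 ± 0.313), and Sfrp2 at 193, 194 and 125 against 151, 182 and 108 (-0.22 ± 0.233). Both were lowest in the third library of each group. Neither passed, with adjusted p of 0.537 and 0.734, or 0.112 and 0.225 with the replicate block (edgeR). No label pairs the libraries of the same number. Frzb had 0.47 ± 0.379. Sfrp5 had -0.32 ± 0.755, with 21.0 CPM in the third control against 2.57 to 9.28 in the others, and its sign turned with the block (0.18).

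The summed antagonist level overlapped between groups, while the shares of Dkk3, Sfrp4, Wif1 and Dkk2 in it did not. The 8 genes summed to 951 ± 71.7 TPM in the control group and 888 ± 84.1 in the Lysm-Cre; Ampkα1fl/fl group. Without Dkk3, the other 7 summed to 638, 647 and 516 TPM in the controls and to 359, 464 and 298 in the Lysm-Cre; Ampkα1fl/fl libraries. Every control was above every Lysm-Cre; Ampkα1fl/fl library in that sum. Dkk3 made up 36.1, 34.4 and 40.6% of antagonist TPM in the controls and 58.6, 52.7 and 63.6% in the Lysm-Cre; Ampkα1fl/fl libraries, and Sfrp4 went from 19.1% ± 0.515 to 7.65% ± 1.10. The shares of Wif1 (7.04% ± 1.36 against 3.24% ± 1.67) and Dkk2 (4.77% ± 0.268 against 2.50% ± 0.104) were also lower without overlap. Those of Sfrp2 (17.1 to 23.1% against 15.2 to 22.8%), Sfrp1, Sfrp5 and Frzb overlapped. These sums were formed after the values of their genes were seen and are given as a description without a test.

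**Figure D2:**
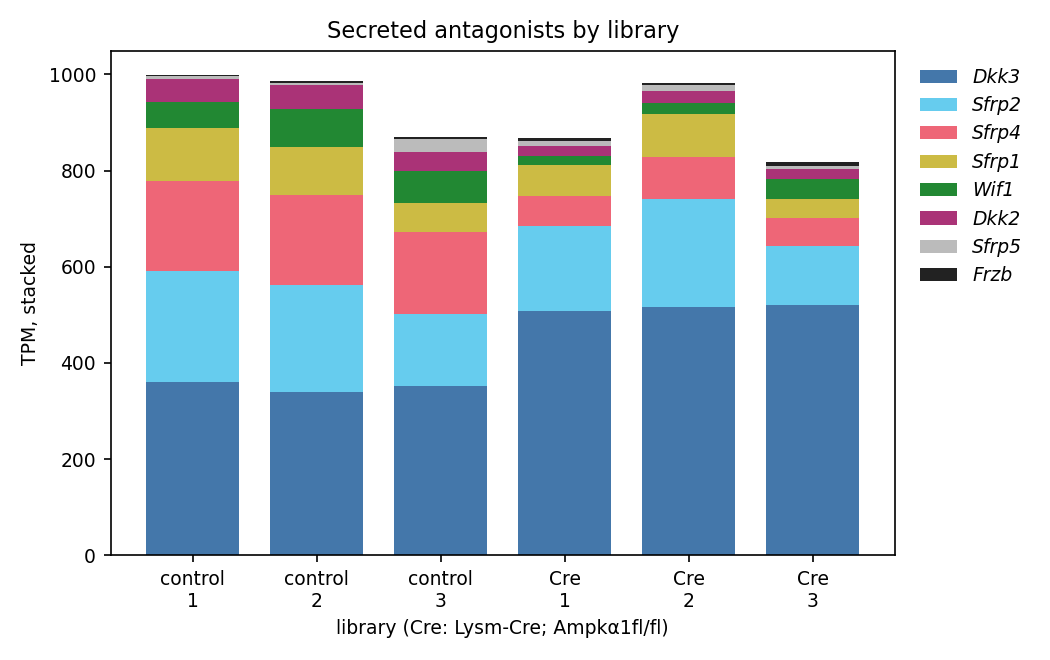
TPM of the 8 secreted antagonists stacked for each library, 3 control and 3 Lysm-Cre; Ampkα1fl/fl (Cre). The totals overlap (869 to 999 against 817 to 981 TPM), while the Dkk3 segment is larger and the Sfrp4, Wif1 and Dkk2 segments are smaller in every Cre library.

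None of the agonists passed the test (0 of 3, edgeR). An unadjusted p under 0.05 was reached by 1 (against 14.5% of all genes), and DESeq2 called 1 (against 4.77%), in each case Rspo2. Rspo2 was the most abundant R-spondin and was at 57.4, 62.1 and 63.8 CPM in the controls and 77.5, 67.5 and 78.9 in the Lysm-Cre; Ampkα1fl/fl libraries. The groups did not overlap (log2 fold change 0.29 ± 0.0777, adjusted p = 0.156, edgeR). Rspo3 was at 4.66, 3.77 and 4.39 CPM against 3.86, 3.30 and 3.19 (-0.31 ± 0.165), and Rspo1 at -0.15 ± 0.317, both with overlap.

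The target and feedback genes, which many cells switch on in response to β-catenin, did not pass either (0 of 6, edgeR). An unadjusted p under 0.05 was reached by 1, Nkd2 (against 14.5% of all genes), and DESeq2 called 0 (against 4.77%). Axin2, the most widely used reporter of the β-catenin branch, was at 8.68, 8.14 and 10.7 CPM in the controls and 8.19, 9.09 and 10.5 in the Lysm-Cre; Ampkα1fl/fl libraries. The groups overlapped, with a log2 fold change of 0.01 ± 0.154 (adjusted p = 0.982, edgeR). Nkd2, an intracellular inhibitor that binds Dishevelled, was at 35.1, 36.0 and 32.4 CPM against 40.6, 43.3 and 40.6, without overlap (0.27 ± 0.0655, adjusted p = 0.129, edgeR). Its relative Nkd1 had -0.05 ± 0.113, the transcription factors Lef1 and Tcf7 had -0.40 ± 0.332 and -0.15 ± 0.182, and Notum, an enzyme that removes the lipid from Wnts, had -0.41 ± 0.297. Lef1 rested on 13 to 29 reads per library and Notum on 24 to 46, so small changes were not detectable at this depth.

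**Figure D3:**
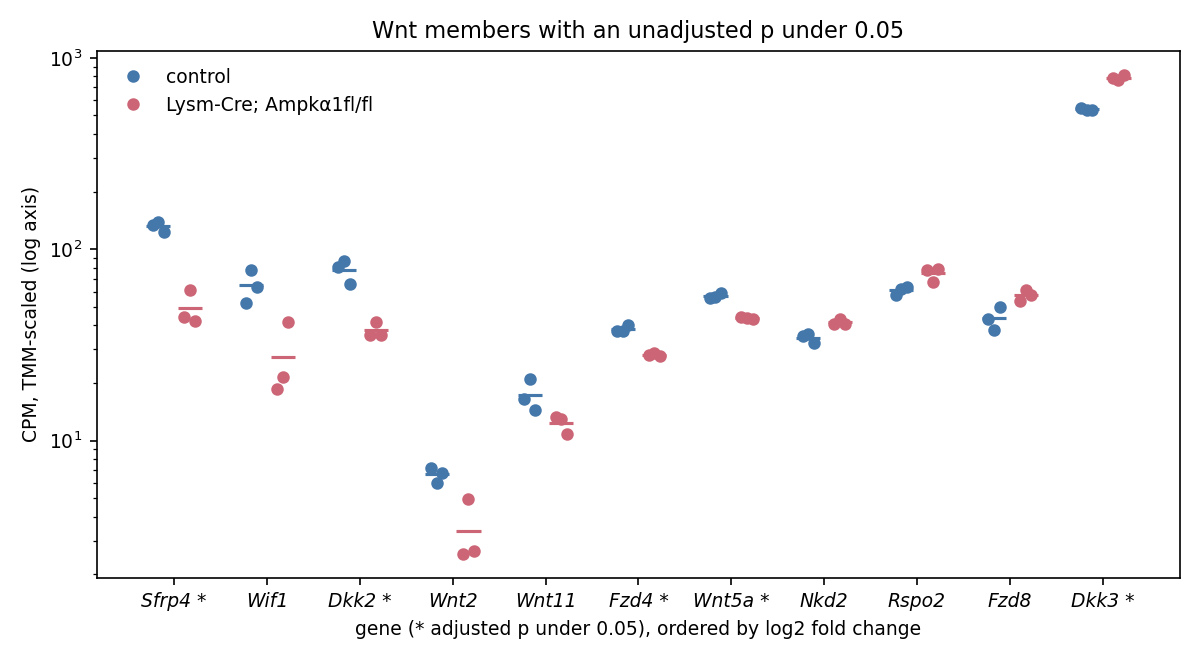
CPM on a log axis for the 11 Wnt genes with an unadjusted p under 0.05, with 1 point per library and a bar at the group mean (blue control, red Lysm-Cre; Ampkα1fl/fl), ordered by log2 fold change from -1.42 in Sfrp4 to 0.55 in Dkk3. Asterisks mark the 5 genes with an adjusted p under 0.05, and in each of the 11 genes the groups do not overlap.

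**Figure D4:**
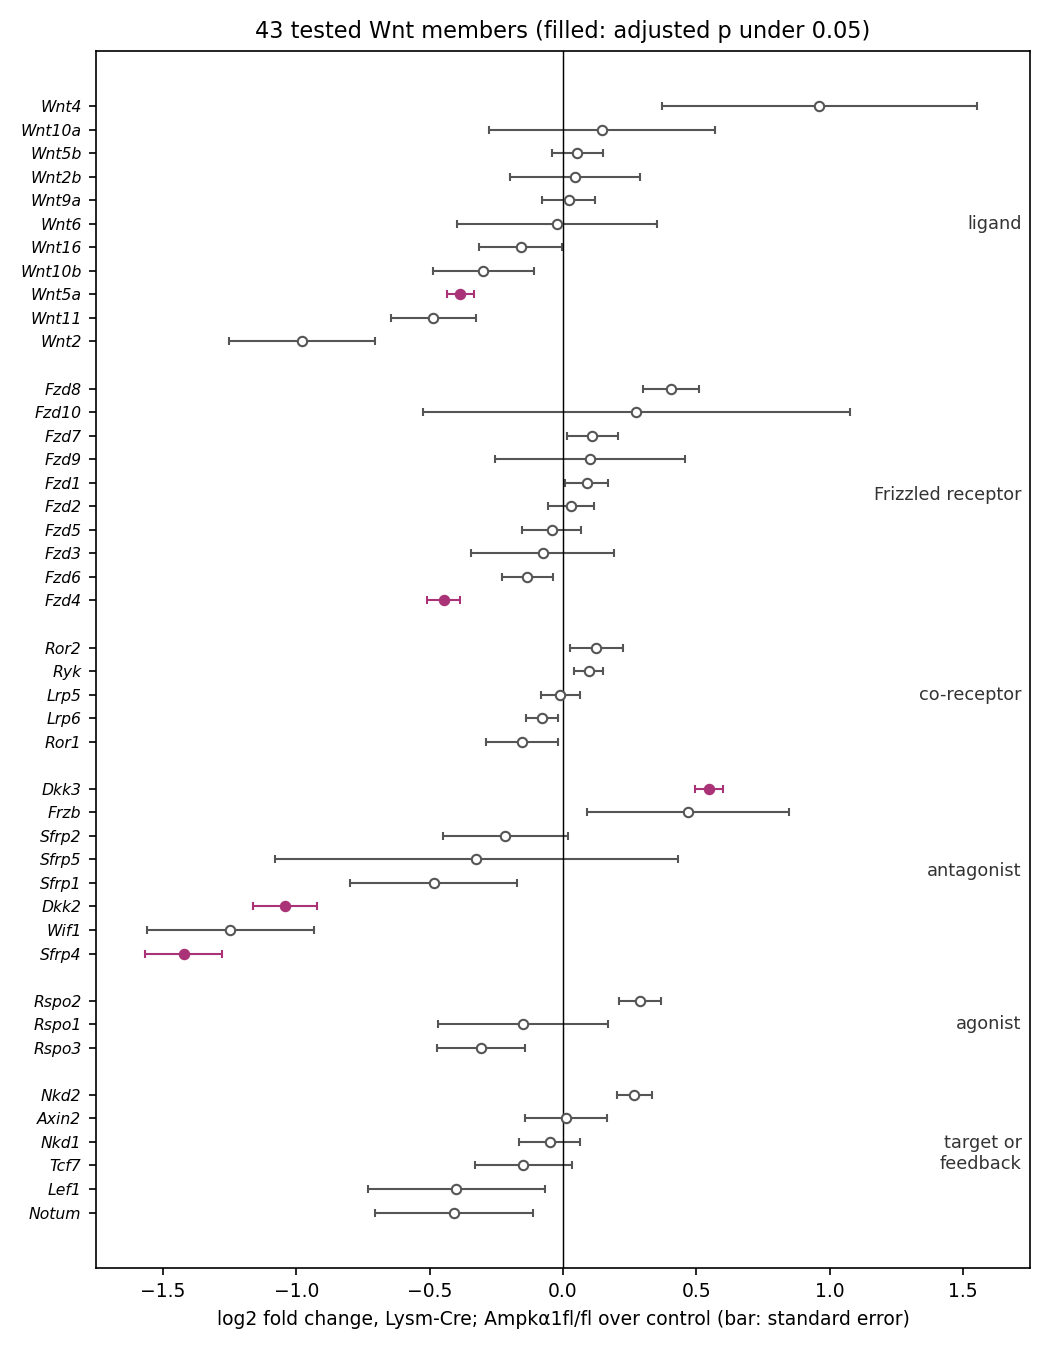
Log2 fold change, Lysm-Cre; Ampkα1fl/fl over control, of the 43 tested Wnt genes by role, with the standard error as a bar. Filled points are the 5 with an adjusted p under 0.05, and the co-receptors lie between -0.15 and 0.12.

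In each of the 11 genes the exact two-sided permutation test of 3 against 3 libraries gave 0.1, the smallest p this design allows, so the calls rest on the fit across all genes. The calls also depended on single libraries. Without control replicate 1, control replicate 2 or Lysm-Cre; Ampkα1fl/fl replicate 1, 0 of the 43 genes passed, with adjusted p from edgeR of 0.0827, 0.0980 and 0.0901 for Sfrp4, 0.0844, 0.0980 and 0.0824 for Dkk3, and 0.113, 0.0985 and 0.111 for Dkk2. For Wnt5a the same fits gave 0.144, 0.163 and 0.125, and for Fzd4 0.165, 0.163 and 0.142. Without control replicate 3, Sfrp4 and Dkk2 passed, and Dkk3 (0.0512), Wnt5a (0.0853) and Fzd4 (0.0863) did not. Without Lysm-Cre; Ampkα1fl/fl replicate 3, Sfrp4, Dkk3 and Wif1 passed, and Dkk2 (0.0671), Wnt5a (0.0953) and Fzd4 (0.102) did not. Without Lysm-Cre; Ampkα1fl/fl replicate 2, 6 genes passed, the 5 and Wnt2. Over all genes these fits called from 8 to 276 genes. The log2 fold changes moved little, from -1.61 to -1.33 in Sfrp4, -1.15 to -0.96 in Dkk2, 0.52 to 0.57 in Dkk3, -0.41 to -0.36 in Wnt5a and -0.47 to -0.41 in Fzd4. With the replicate block 2 of the 43 genes passed, Sfrp4 and Dkk2, against 47 of all genes (0.33%), and with DESeq2 9 passed, against 680 of all genes (4.77%). The 4 that DESeq2 added were Wnt2 (adjusted p = 0.0466), Fzd8 (0.0223), Wif1 (0.0415) and Rspo2 (0.0446).

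Markers of several other cell types moved with the groups. Bone markers (6 of 6 detected, among them Bglap and Ibsp) summed to 11.4 to 22.4 CPM in the controls and 3.23 to 4.38 in the Lysm-Cre; Ampkα1fl/fl libraries, and Ibsp had no reads in 1 of the latter. Markers of pericytes and smooth muscle (4 of 4) summed to 849 to 905 against 600 to 700.0 CPM, of dividing cells (5 of 5) to 316 to 401 against 199 to 284, of mast cells (3 of 3) to 267 to 391 against 105 to 170.3, and of red blood cells (6 of 6) to 1993 to 2969 against 675 to 982. The macrophage list (7 of 7, Lyz2 included) summed to 1065 to 1112 against 364 to 516 CPM. Without Lyz2, the locus that carries Cre, the other 6 summed to 661 to 687 against 364 to 515 CPM, and Cd68 of that list was at 37.6 to 46.8 against 43.3 to 59.2. Each of these lists was lower in the Lysm-Cre; Ampkα1fl/fl group without overlap, the direction of Sfrp4, Dkk2, Wnt5a and Fzd4, and their part in these results was not tested. Skeletal muscle markers (12 of 12) varied most, from 189 to 3270 CPM in the controls and from 1114 to 9760 in the Lysm-Cre; Ampkα1fl/fl libraries, with overlap. All 12 had positive log2 fold changes, with a median of 1.85, and 0 passed the test. With the muscle score of each library as a covariate, Sfrp4, Dkk2 and Dkk3 passed (adjusted p = 0.0112, 0.0227 and 0.0383, edgeR), and Wnt5a (0.0761) and Fzd4 (0.0874) did not. The summed levels of tendon fibroblast, cartilage, endothelium, Schwann cell, adipocyte, neutrophil, epidermis, and T and NK cell markers overlapped between groups, but genes within some of these lists did not. In the cartilage list 4 of 7 tested genes were higher without overlap, against 8.94% of all genes. These were Acan (760 to 896 against 1194 to 1302 CPM, adjusted p = 0.0298, edgeR), Comp, Sox9 and Matn3, in the direction of Dkk3. The other 3 went the other way with overlap, with log2 fold changes of -1.89 in Col2a1, -0.33 in Col11a2 and -0.15 in Col9a1. Col2a1 reached 2090 CPM in the second control alone. In the endothelium list 2 of 5 were lower without overlap, as Fzd4 was, against 11.4% of all genes. These were Tek (63.3 to 70.4 against 51.2 to 54.2 CPM, adjusted p = 0.0664, edgeR) and Cdh5. Pecam1, Kdr and Emcn overlapped, with log2 fold changes of -0.07, -0.07 and -0.03. In the adipocyte list 2 of 4 were lower without overlap, against 11.4% of all genes. These were Plin1 and Lep (adjusted p = 0.293 and 0.223, edgeR), while Adipoq and Fabp4 overlapped. The part of these genes in the results was not tested either.

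Beyond the 45 genes, 101 other names of the pathway were listed, 97 were in the table and 82 were tested. Of these 1 passed, lower (1.22%, against 0.898% of all genes), and 17 reached an unadjusted p under 0.05 (against 14.5% of all genes), 9 higher and 8 lower (against 5.97% and 8.55%). Their median log2 fold change was 0.00. Gpc6, a heparan sulfate proteoglycan of the cell surface that binds Wnts, was at 71.7, 68.5 and 71.5 CPM in the controls and 50.5, 52.7 and 52.9 in the Lysm-Cre; Ampkα1fl/fl libraries. It fell by 0.44 on the log2 scale (SE 0.0494, adjusted p = 0.0196 by edgeR, 0.0634 with the replicate block). Without any 1 of control replicates 1, 2 and 3 and Lysm-Cre; Ampkα1fl/fl replicates 1 and 3, 0 of the 82 passed, and the adjusted p of Gpc6 then reached up to 0.130.

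The next genes by p did not pass by edgeR, but the 5 that follow passed by DESeq2, with adjusted p of 0.0056 for Celsr1, 0.0050 for Reck, 0.0163 for Kremen1, 0.0041 for Ptk7 and 0.0043 for Cthrc1. Celsr1, a cadherin of the polarity branch, had a log2 fold change of -0.76 (adjusted p = 0.0737, edgeR) and Reck, a receptor partner for Wnt7 ligands, -0.30 (0.0744). Among those with positive values, Kremen1, which binds Dkk proteins, had 0.24 (0.113), Ptk7, a co-receptor of the polarity branch, 0.34 (0.118), and Cthrc1, a secreted protein that favours the polarity branch, 0.28 (0.135, and 3 of its 6 transcript entries repeat the values of the others). These 5 genes were picked by their small p, and groups did not overlap in any of them. Over the 82 genes tested, groups did not overlap in 18 (22.0%), against 20.4% of all genes. DESeq2 called 9 of the 82, against 4.77% of all genes. In the secretion step Porcn, which adds the lipid, had 0.42 (0.144) and Wls, the carrier, 0.10 (0.59). None of the 20 genes of the Dishevelled and destruction complex passed by edgeR, and Ctnnb1, which encodes β-catenin, had 0.13 (0.503). Of the 20, 1 reached an unadjusted p under 0.05 (against 14.5% of all genes), and DESeq2 called 0 (against 4.77%). None of the 12 other β-catenin target genes passed by edgeR either, 3 with positive and 9 with negative values. Of the 12, 5 reached an unadjusted p under 0.05 (against 14.5% of all genes), and DESeq2 called 2 (against 4.77%).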

How the data were processed

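RNA was sequenced from tendon tissue of 3 control and 3 Lysm-Cre; Ampkα1fl/fl mice on the BGISEQ platform. The authors deposited 1 table of 65053 transcripts with estimated counts and TPM per library on GRCm38.p6, and the aligner and counter are not given in the sources used here. The remaining columns, 12 of single libraries (2 for each of 6) and 8 holding means of a group, were left aside. Estimated counts were summed per NCBI gene number and rounded, TPM were summed, and 18049 of 18099 genes (99.7%) matched a RefSeq symbol. Totals were 18076805 to 19479887 reads. Genes kept by filterByExpr (14261) were tested with edgeR 4.0.16 in R 4.3.3 (TMM scaling, quasi-likelihood F test, Benjamini-Hochberg adjustment over all genes tested, threshold 0.05). CPM are TMM-scaled. The standard error is the log2 fold change over the root of F. Exact permutation tests used log2(CPM + 0.5). Alternatives were DESeq2 1.42.0, other scalings and filters, a replicate block, a muscle score as covariate, and leaving out each library. No pairing of libraries is stated. The deviations of same-numbered libraries correlated weakly over genes (r = 0.184, 0.118 and 0.310). Control library 1 and Lysm-Cre; Ampkα1fl/fl library 2 correlated more (r = 0.501), so the data did not single out replicate number as a pairing. Blocked values are given as an alternative for the genes that passed and for some others. The scripts were tested on simulated data.

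The 45 genes and the lists of pathway genes and markers were chosen with earlier results of these data known. Described in full were members with an adjusted or unadjusted p under 0.05 or groups that did not overlap, the most abundant and the most changed member of each role, and, outside the members, genes with an adjusted p under 0.05 and the 3 with the smallest p in each direction. Others are named as background to the pathway. Of the listed names, Dkk4 and Sp5 did not match, and Wisp1 and Tiki2 are older symbols of Ccn4 and Trabd2b. Promoters came from a RefSeq table, of which only the bases before the gene are printed.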

Additional observations from a re-analysis of the deposited data

How the results depend on the processing

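The count of Wnt genes past the threshold was 5 with RLE scaling, with upper-quartile scaling, without a filter on low counts and with at least 10 reads in every library. Over all genes DESeq2 called 680 (302 higher, 378 lower), the replicate block 47 (11 higher, 36 lower) and the muscle score as covariate 73 (25 higher, 48 lower). Of the Wnt genes DESeq2 called 9 (3 higher), the replicate block 2 (0 higher, 2 lower) and the muscle covariate 3 (2 lower). Of the other pathway genes DESeq2 called 9 (5 higher, 4 lower), and the block and the muscle covariate 0 each. The block changed no other call among the described Wnt genes than those of Dkk3, Wnt5a and Fzd4. Leaving out 1 library at a time gave 8 to 276 genes (2 to 139 higher, 6 to 137 lower), 0 to 6 Wnt genes (0 to 1 higher, 0 to 5 lower) and 0 to 1 other pathway genes, with none higher. The last of these fits also had fewer libraries, and the cause of the differences was not tested. For the 17 Wnt genes described in full, 220 of 221 fold changes kept their direction, and the exception was Wnt9a (-0.0977 without Lysm-Cre; Ampkα1fl/fl replicate 2, up to 0.1002 in the other such fits). Over all 43, 15 turned direction in at least 1 fit with the block or without a library, none of them with an unadjusted p under 0.05. The widest were Fzd10 (-1.18 to 0.75) and Sfrp5 (-0.77 to 1.07), both also turned by the block (-0.10 and 0.18). Transcript shares from estimated counts in place of TPM moved beyond the spread in 5 of 24 genes, among them Wnt5a. With 3 libraries a group, a change in a gene with few reads, such as Wnt4 or Fzd10, could not be told from the spread.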

Other observations

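Sfrp5 varied more within groups than between them, with 86, 47 and 383 reads in the control libraries and 178, 168 and 75 in the Lysm-Cre; Ampkα1fl/fl libraries. Fzd10 had 16, 27 and 37 reads against 17, 7 and 74. Wnt1, which was not tested, had 6, 5 and 7 reads against 4, 1 and 1, and Wnt7b had 3, 2 and 2 against 0, 1 and 6. Among the pathway genes outside the 45, Msx2, a homeobox gene of skeletal tissue, had the largest absolute log2 fold change, -1.06 (2.28, 3.44 and 3.78 CPM against 1.30, 1.89 and 1.35; adjusted p = 0.143, edgeR), and was chosen after its values were seen.

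Several other ligands and antagonists of the family had few reads in this tissue, but Sostdc1, another extracellular modulator, had 223 to 429 reads per library and was tested. Wnt3, Wnt3a, Wnt7a, Wnt8a, Wnt8b and Wnt9b, Dkk1 and Sost had from 0 to 6 reads in each library and were not tested.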
